A study of Mus musculus with 2 samples.

Results

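The CC chemokine ligands Ccl2, Ccl3, Ccl4, Ccl5, Ccl6, Ccl7, Ccl8 and Ccl9, known for drawing monocytes and other leukocytes into inflamed tissue, and Ccr1, a receptor shared by several of them, were followed cell type by cell type in the mouse temporomandibular joint (TMJ), the hinge between jaw and skull. They are 9 of the 32285 features counted, each matched by its gene symbol in both count matrices, and all 9 were found once in each. The series holds 2 single-cell RNA-Seq libraries, 1 from TMJ injected with phosphate-buffered saline (PBS) and 1 from TMJ injected with complete Freund's adjuvant (CFA), an oil emulsion of killed mycobacteria that provokes lasting inflammation. The labels give wild-type C57BL/6 mice, 8 to 10 weeks old, for both. According to the methods, female C57BL/6J mice received bilateral 10 µL injections, either PBS or CFA (5 mg/mL), when 8 weeks old and were collected 3 weeks later. Condyle, disc, temporal bone, muscle and ligament from 3 mice per group were digested together, so each library is a pool in which single animals cannot be told apart. CD45+ cells, the leukocytes, were then depleted from both pools with magnetic nanobeads, so the leukocytes described here are those that escaped depletion, and their numbers do not give the share of leukocytes in the joint.

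CC chemokines are small secreted proteins named for a pair of adjacent cysteines near the start of the mature chain. They bind G protein-coupled receptors on leukocytes and guide those cells out of the blood and through tissue, and each ligand can engage several receptors while each receptor reads several ligands. CCL2, CCL7 and CCL8 are the monocyte chemoattractant proteins, of which CCL2 and CCL7 act mainly through CCR2. CCL3 and CCL5 are ligands of CCR1, and CCL6 and CCL9 are rodent ligands of the same receptor.

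The cysteine pair from which the family takes its name was found once, in frame, in the coding sequence of each ligand. The 42 coding bases around it are shown, 5′ to 3′, because they are what the 8 ligands share by name and because the neighbouring bases show how far they differ. The capitals mark the adjacent cysteine codons, and Ccl4 was the only one of the 8 with a TGT as its second codon.
Ccl2: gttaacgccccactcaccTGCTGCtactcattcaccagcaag
Ccl7: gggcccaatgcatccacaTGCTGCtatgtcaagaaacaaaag
Ccl8: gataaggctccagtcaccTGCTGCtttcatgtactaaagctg
Ccl3: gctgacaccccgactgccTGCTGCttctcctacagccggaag
Ccl4: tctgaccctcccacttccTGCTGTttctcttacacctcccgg
Ccl5: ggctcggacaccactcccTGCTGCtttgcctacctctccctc
Ccl6: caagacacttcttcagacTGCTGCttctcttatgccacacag
Ccl9: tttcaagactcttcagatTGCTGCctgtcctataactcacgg

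The 8 ligand genes lie on chromosome 11 of GRCm38 in 2 groups, by the GENCODE vM21 annotation. Ccl2 (82035571 to 82037453), Ccl7 (82045712 to 82047525) and Ccl8 (82115185 to 82116799), all on the plus strand, span 81.2 kb. Ccl5 (83525778 to 83530518, minus), Ccl9 (83572919 to 83578636, minus), Ccl6 (83587882 to 83593087, minus), Ccl3 (83647844 to 83649355, minus) and Ccl4 (83662584 to 83664683, plus) span 138.9 kb. Ccr1 lies apart on chromosome 9 (123962124 to 123968692, minus). The longest run of bases shared by the transcripts of any pair of ligands was 25, between Ccl6 and Ccl9, followed by 23 between Ccl2 and Ccl7. Ccl2 overlaps the antisense gene Gm17268 and Ccl6 overlaps E230016K23Rik on the other strand.

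A barcode was kept as a cell where it held at least 500 genes, at most 10% mitochondrial UMIs and at most 1% hemoglobin UMIs. A UMI (unique molecular identifier) tags 1 captured RNA molecule, so that PCR copies are counted once. The PBS library kept 2667 of 7671 barcodes (median 7022 UMIs and 2723 genes per cell) and the CFA library 4014 of 5709 (6510 and 2516). The hemoglobin limit removed 54.4% of the barcodes that passed the other limits in PBS and 7.79% in CFA, and 10 barcodes occurred in both libraries, 2 of them among kept cells. Cells were grouped by canonical markers into 21 classes, which are called fibroblast-like, macrophage-like and so on, and 4.46% of PBS cells and 7.87% of CFA cells stayed unnamed. The CC ligands and receptors were left out of the clustering. With 1 library per condition there is no replicate error and no test of PBS against CFA, and intervals in brackets are exact 95% intervals that cover counting error only.

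The myeloid classes were sparse in PBS. The macrophage-like class had 11 cells in PBS and 310 in CFA, the monocyte-like class 18 and 59, the neutrophil-like class 19 and 226, the immature neutrophil-like class 53 and 168, and the basophil-like class 7 and 12. A further 233 cells, all in CFA, formed 1 cluster termed Acp5 macrophage-like after Acp5 (459 CPM, UMIs of the gene per 1000000 UMIs of all genes), with Spp1 at 5496 and Mmp12 at 3713 CPM. Of the genes known from osteoclasts, Dcstamp was at 594.7 CPM against 16.0 in all other CFA cells and Atp6v0d2 at 261.8 against 10.1. Ctsk was at 93.0 against 94.8, with 16.4 and 14.4 in the 2 macrophage-like clusters, and Ocstamp was at 1.10 against 0.248, in 3.43% of the cells. The name is a label for the cluster and does not settle its cell type. The cluster was formed in a step that merged the libraries without integration. These cells were also the deepest, with a median of 32766 UMIs. C1qa, a complement gene of macrophages, was in 100% of PBS and 74.8% of CFA macrophage-like cells, and 6 of the 10 PBS cells in the macrophage-like cluster with the most PBS cells had doublet scores in the top 5% of their library. PBS values of the macrophage-like class therefore rest on few cells, several of them with high doublet scores.

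Over all kept cells, 8 of the 9 genes were at least 2-fold higher in the CFA library with a counting interval that excluded 1, and none was lower. Of 19588 genes with at least 10 UMIs, 9.07% were higher and 10.4% were lower by this rule, and the median ratio was 0.864 over all genes and 5.11 over the 9. With bulk sums such as these, more cells of a type and more RNA per cell cannot be told apart.

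Ccl9 was at 8.05 CPM (7.02 to 9.19) in PBS and 266.4 (261.6 to 271.2) in CFA, which is 33.1-fold (29.0 to 38.0). Ccl6 was at 18.6 in PBS and 599.6 in CFA, 32.3-fold (29.6 to 35.3). Ccr1 was at 3.01 and 73.0, 24.2-fold (19.5 to 30.5), and Ccl5 was at 10.2 and 225.0, 22.0-fold (19.5 to 24.9). These were the 4 largest ratios, and their intervals overlapped in a chain, with that of Ccl5 below those of Ccl6 and Ccl9. The remaining ligands differed less between the libraries. Ccl8 was at 10.1 and 51.6 CPM, 5.11-fold (4.50 to 5.81), Ccl3 at 27.0 and 114.8, 4.26-fold (3.94 to 4.61), Ccl4 at 68.9 and 261.2, 3.79-fold (3.61 to 3.98), and Ccl7 at 28.5 and 60.9, 2.14-fold (1.97 to 2.32). Ccl2, the best known monocyte chemoattractant, was at 22.8 and 29.2, 1.28-fold (1.17 to 1.42), short of the 2-fold limit.

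Much of this moved with the makeup of the libraries. When the levels of each class in CFA were averaged with the class shares of PBS, Ccl6 came to 60.9 CPM in place of 599.6, Ccl9 to 36.2 in place of 266.4, Ccl5 to 34.9 in place of 225.0 and Ccr1 to 11.9 in place of 73.0. Ccl7 came to 53.5 in place of 60.9 and Ccl2 to 23.8 in place of 29.2. The reverse average, of PBS levels with the class shares of CFA, gave 142.4 for Ccl7, 99.7 for Ccl2, 101.0 for Ccl8 and 136.8 for Ccl3, above the measured CFA levels. It gave 229.9 for Ccl4, 151.6 for Ccl6, 49.3 for Ccl9, 48.3 for Ccl5 and 13.2 for Ccr1, below the measured CFA levels. Few PBS myeloid cells lie behind these values. The Acp5 macrophage-like class, with 0 PBS cells, entered this average at 0 and lowered it. Values below the measured CFA levels are thus in part set by that missing class. With all immune classes left out, Ccl2 was at 17.3 in PBS and 22.9 in CFA, Ccl7 at 22.4 and 56.7, and Ccr1 at 0.0413 and 2.46. Ccr1 transcripts were thus almost all in immune classes in both libraries, while the remaining cells held Ccl2 and Ccl7 at levels below those over all cells by less. These levels are per UMI of the remaining cells. They do not give the share of Ccl2 or Ccl7 UMIs outside the immune classes, and shares of UMIs by class are given below. How far the nanobead depletion set the class shares was not tested.

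**Figure D1:**
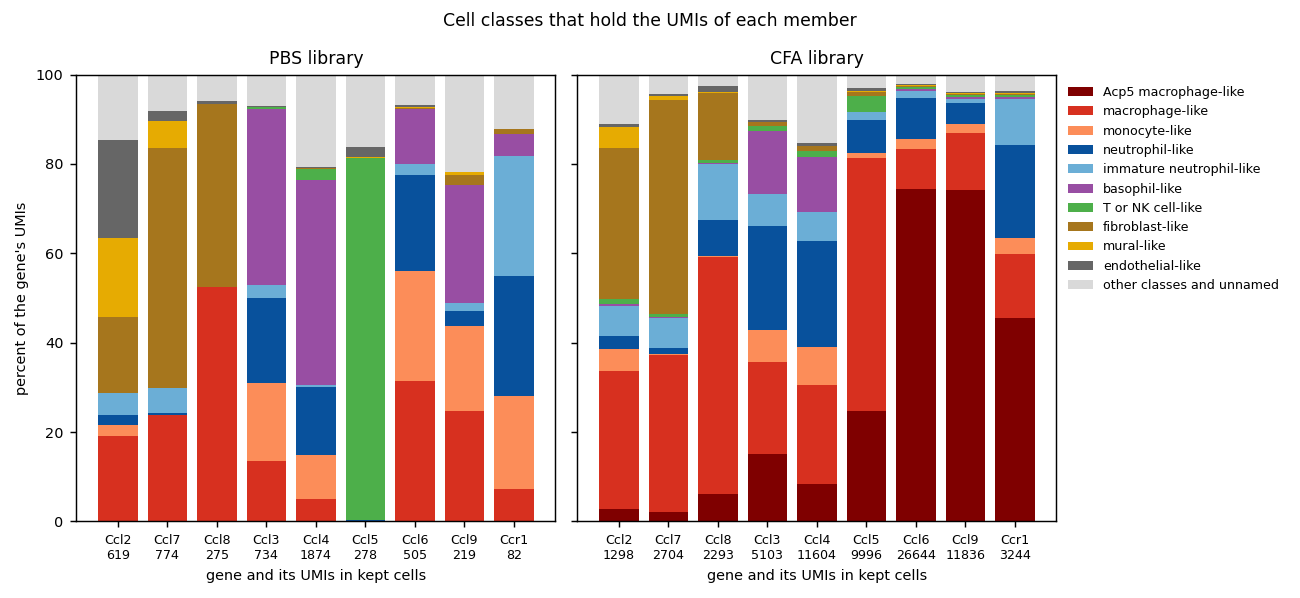
Percent of each gene's UMIs (vertical axis) held by each cell class in the PBS library (left) and the CFA library (right), with the number of UMIs in kept cells under each gene name. In CFA the Acp5 macrophage-like cells held 74.5% of Ccl6 and 74.2% of Ccl9 UMIs, and fibroblast-like cells held 48.0% of Ccl7 UMIs.

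The cells that held these transcripts differed from gene to gene. In the CFA library the Acp5 macrophage-like cluster, 5.81% of cells, held 74.5% of Ccl6 and 74.2% of Ccl9 UMIs. The macrophage-like class held 56.7% of Ccl5, 53.1% of Ccl8, 35.2% of Ccl7 and 30.9% of Ccl2 UMIs. The fibroblast-like class held 48.0% of Ccl7 and 33.7% of Ccl2 UMIs. Ccl3 and Ccl4 were spread most widely, with 23.2% and 23.6% in neutrophil-like cells, 20.6% and 22.2% in macrophage-like cells and 14.2% and 12.3% in 12 basophil-like cells. Over the 9 genes together, the myeloid classes held 68.6% of UMIs (67.3 to 69.8) in PBS and 92.8% (92.6 to 93.0) in CFA.

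In the PBS library a few rare cells held large parts of several genes. The 7 basophil-like cells held 39.4% of Ccl3, 45.9% of Ccl4 and 26.5% of Ccl9 UMIs, and 8 T or NK cell-like cells held 80.9% of Ccl5 UMIs. The fibroblast-like class held 53.6% of Ccl7 and 41.1% of Ccl8 UMIs in PBS, and no class held more than 22.0% of Ccl2, which was divided among endothelial-like, macrophage-like, mural-like and fibroblast-like cells. Single cells could carry much of a class sum: 115 of the 136 Ccl2 UMIs of PBS endothelial-like cells, 232 of the 284 Ccl4 UMIs of PBS neutrophil-like cells and 121 of the 144 Ccl8 UMIs of PBS macrophage-like cells were each in 1 cell.

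**Figure D2:**
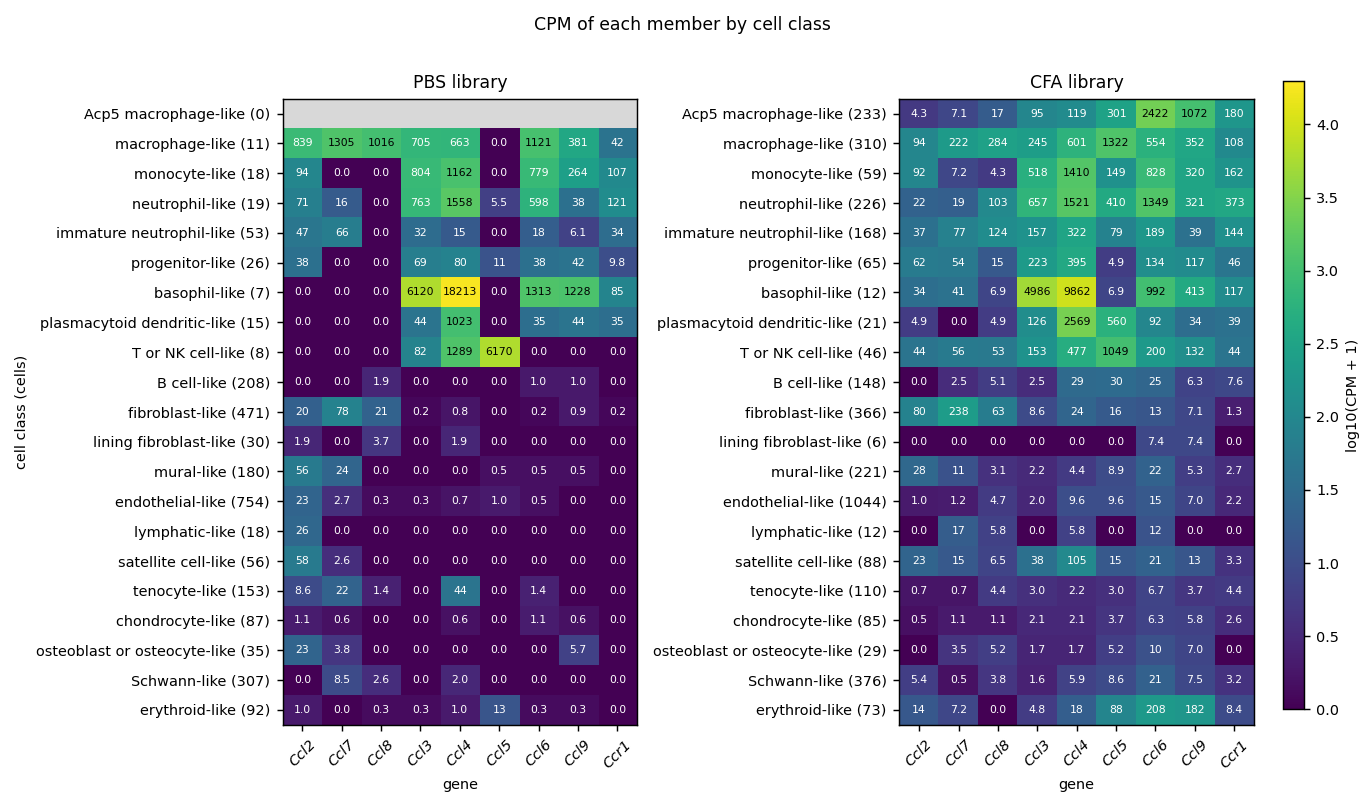
Levels of the 9 genes (columns) in each cell class (rows) in CPM, on a log color scale, in the PBS library (left) and the CFA library (right). Ccl2, Ccl7 and Ccl8 show stromal as well as myeloid rows, while Ccl3, Ccl4, Ccl5, Ccl6, Ccl9 and Ccr1 are at 24.2 CPM or less in CFA fibroblast-like, mural-like, endothelial-like and Schwann-like cells.

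Ccl2, Ccl7 and Ccl8, the monocyte chemoattractant genes of the first group on chromosome 11, shared 1 macrophage-like cluster and the fibroblast-like cells. The macrophage-like class of CFA divided into a cluster of 203 cells termed larger macrophage-like, and a cluster of 107 cells led by the mannose receptor gene Mrc1 (1025 CPM) with Folr2 at 160.5, termed Mrc1 macrophage-like, a pair of genes typical of resident macrophages. H2-Ab1, a major histocompatibility gene, did not set them apart, at 2906 CPM in the larger and 3046 in the Mrc1 cluster. In the CFA library Ccl8 was at 982.7 CPM (926.9 to 1041) in the Mrc1 cluster, 19.3 (14.7 to 24.9) in the larger macrophage-like cluster and 17.1 (14.4 to 20.2) in the Acp5 cluster. Ccl7 was at 774.6 (725.2 to 826.6), 12.9 (9.19 to 17.5) and 7.08 (5.38 to 9.15) in the same order, and Ccl2 was at 278.6 (249.3 to 310.4), 23.5 (18.4 to 29.5) and 4.27 (2.98 to 5.94). For all 3 genes the Mrc1 interval lay above both others.

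The same cluster held these genes in PBS as well, in 10 cells, with Ccl7 at 1379 CPM (1187 to 1593), Ccl8 at 931.7 (775.5 to 1110) and Ccl2 at 827.3 (680.6 to 996.3). The Ccl8 interval overlapped that of CFA, while the Ccl7 and Ccl2 values were higher in PBS than in CFA. With 10 cells, 6 of them with high doublet scores, these PBS levels are given as values only.

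Other classes held less. The order of Ccl2 levels in CFA ran from macrophage-like (93.6 CPM, 84.6 to 103.2), monocyte-like (91.9, 70.8 to 117.3) and fibroblast-like (80.2, 72.9 to 88.1) to progenitor-like cells (61.6, 50.1 to 74.9), each interval overlapping the next, and every other class was at 44.2 or less. Ccl7 was led by fibroblast-like (237.5, 224.8 to 250.8) and macrophage-like cells (222.1, 208.3 to 236.7), with overlapping intervals, and was at 76.9 in immature neutrophil-like cells and at most 56.0 in every other class. Ccl8 was led by macrophage-like cells (284.0, 268.2 to 300.4), followed by immature neutrophil-like (124.0, 110.1 to 139.1), neutrophil-like (103.4, 89.0 to 119.3) and fibroblast-like cells (62.6, 56.2 to 69.6), of which the first pair overlapped. Both neutrophil values rested on few cells: 1 neutrophil-like cell with UMIs of 7 macrophage markers held 167 of 186 Ccl8 UMIs, and without the 19 immature neutrophil-like cells that held at least 3 macrophage markers the Ccl8 level there was 3.52. By share of cells, Ccl2 was in 56.1%, Ccl7 in 51.4% and Ccl8 in 44.9% of CFA Mrc1 macrophage-like cells (median 10472 UMIs). In CFA B cell-like cells (median 4024 UMIs), which should lack these genes, Ccl2 was in 0 of 148 cells, which allows a share of cells with a UMI of up to 2.03% (3 of 148), Ccl7 was in 0.676% and Ccl8 in 2.70%.

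**Figure D3:**
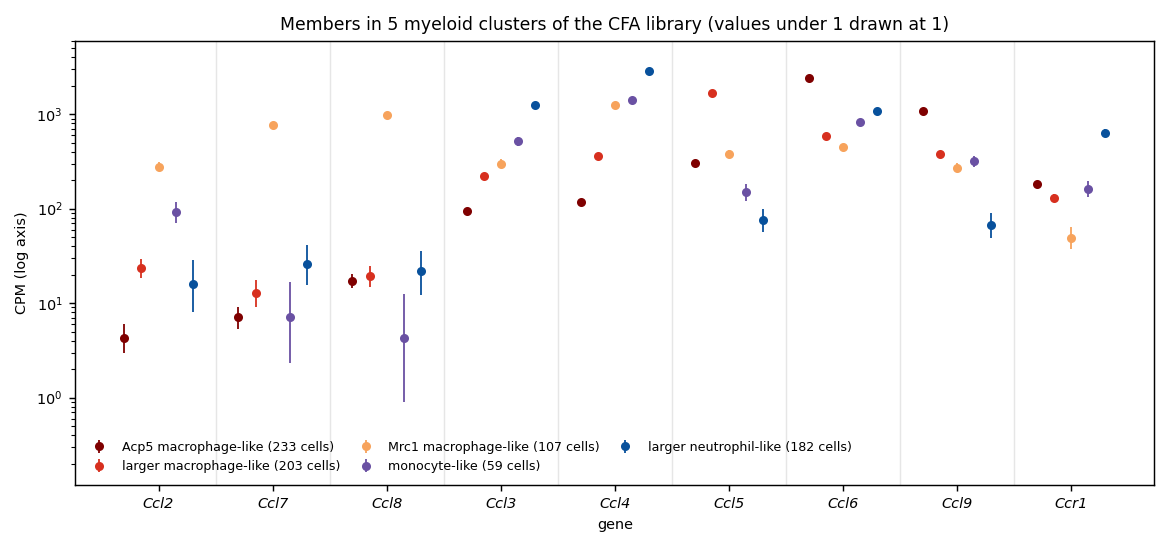
CPM (log axis) of each gene in 5 myeloid clusters of the CFA library, with exact 95% Poisson intervals as bars and values under 1 drawn at 1. Ccl2, Ccl7 and Ccl8 peak in the Mrc1 macrophage-like cluster, Ccl5 in the larger macrophage-like cluster (1677), Ccl6 and Ccl9 in the Acp5 macrophage-like cluster (2422 and 1072), and Ccl3, Ccl4 and Ccr1 in the larger neutrophil-like cluster (1244, 2903 and 636).

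Ccl3 and Ccl4, which encode the macrophage inflammatory proteins 1-alpha and 1-beta and lie side by side on opposite strands, were at their highest levels in basophil-like cells of both libraries. Ccl3 was at 6120 CPM (5435 to 6868) in 7 PBS cells and 4986 (4629 to 5363) in 12 CFA cells, and Ccl4 was at 18213 (17016 to 19472) and 9862 (9358 to 10386). Mcpt8, a protease gene of basophils, was at 10144 and 7520 CPM there. Each of the 12 CFA cells held Ccl4 and 11 of them held Ccl3.

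After the basophil-like cells, Ccl4 in CFA was highest in plasmacytoid dendritic cell-like cells (2569 CPM, 2355 to 2798, 21 cells), neutrophil-like cells (1521, 1465 to 1579) and monocyte-like cells (1410, 1323 to 1501). The last 2 intervals overlapped. Macrophage-like cells were at 601.1 (578.1 to 624.8), T or NK cell-like cells at 477.1 (406.5 to 556.5), progenitor-like cells at 394.7 (364.7 to 426.4) and Acp5 macrophage-like cells at 118.9 (111.5 to 126.6). For Ccl3 the order below the basophil-like cells was neutrophil-like (657.3, 620.4 to 695.9), monocyte-like (518.2, 466.1 to 574.5), macrophage-like (245.0, 230.4 to 260.3), progenitor-like (222.9, 200.5 to 247.1) and immature neutrophil-like (156.9, 141.2 to 173.8), of which macrophage-like and progenitor-like cells did not differ beyond their intervals. Both genes were thus shared among neutrophil-like, monocyte-like and macrophage-like cells.

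The neutrophil-like class joined 2 clusters that differed. The larger one (182 CFA cells, median 2894 UMIs) held Ccl4 at 2903 CPM (2777 to 3033) and Ccl3 at 1244 (1162 to 1330), and the smaller one (44 CFA cells, median 18590 UMIs) held 664.5 (617.4 to 714.2) and 293.5 (262.5 to 327.2). Of the 44 cells, 79.6% held at least 3 macrophage markers beside neutrophil markers and 13.6% had doublet scores in the top 5%. A marker counted from 1 UMI on, so such shares depend on depth. The reverse was also common: at least 3 neutrophil markers were in 78.0% of monocyte-like CFA cells. They were in 57.1% of larger, 54.5% of Acp5 and 30.8% of Mrc1 macrophage-like CFA cells. Without the 42 CFA cells of the neutrophil-like class that held at least 3 macrophage markers, Ccl4 was at 2655 and Ccl3 at 1139. Mature neutrophil markers were high in the class as a whole, with S100a8 at 42377 CPM in PBS and 19842 in CFA, and Retnlg at 7539 and 5411. PBS neutrophil-like cells stood at 1558 for Ccl4 and 762.7 for Ccl3, but at 297.4 and 80.1 without 1 cell.

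Ccl4 tended to be found in the same cells as Ccl3. Among CFA neutrophil-like cells it was in 88.2% of the 127 cells with Ccl3 and in 39.4% of the cells without, and with every cell thinned to 1000 UMIs these shares were 83.3% and 24.5%. In CFA monocyte-like cells the shares were 78.1% and 40.7% (84.2% and 20% when thinned). In the larger macrophage-like cluster they were 67.0% and 28.6%, and 28.2% and 16.5% when thinned. Cells of 1 library are not replicates, so these are descriptions of the libraries. In endothelial-like cells, which should lack both genes, Ccl4 was in 5.56% and Ccl3 in 1.15% of CFA cells (median 4402 UMIs), against 66.8% and 56.2% of neutrophil-like cells (median 3341).

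Ccl5, known as RANTES and made by activated T cells and macrophages, was held mainly by lymphocyte-like cells in PBS and by macrophage-like cells in CFA. In PBS it was at 6170 CPM (5390 to 7031) in 8 T or NK cell-like cells, 225 of 278 UMIs, while 0 UMIs were found in 11 macrophage-like cells (a floor of 21.2 CPM at 3 counts) and 0 in 18 monocyte-like cells (18.8). Of the other 53 PBS UMIs, 37 were in 1 erythroid-like cell. In CFA the macrophage-like class was at 1322 (1287 to 1357) and the T or NK cell-like class, 46 cells, at 1049 (942.4 to 1163). The ratio of the libraries of 22.0 over all cells thus joined a lymphocyte value in PBS with a macrophage value in CFA.

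Among CFA macrophages Ccl5 was highest in the larger macrophage-like cluster, at 1677 CPM (1632 to 1724) and in 75.4% of cells, against 382.2 (347.7 to 419.2) and 28.0% in the Mrc1 cluster and 301.1 (289.4 to 313.3) and 55.8% in the Acp5 cluster. Thinned to 1000 UMIs per cell, the shares were 46.3%, 13.6% and 15%, so the gap between the Mrc1 and Acp5 clusters in unthinned shares was not kept at equal depth. The cluster with the most Ccl5 was therefore not the one with the most Ccl2, Ccl7 and Ccl8, nor the one with the most Ccl6 and Ccl9. Neutrophil-like cells of CFA were at 410.1 (381.0 to 440.8), of which 344 of 738 UMIs were in 1 cell, and at 60.2 without the cells that held 3 macrophage markers. Monocyte-like cells were at 149.3 (122.0 to 180.9). In CFA Schwann-like cells (median 3454 UMIs), which should lack the gene, Ccl5 was in 3.99% of cells.

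Ccl6 and Ccl9, chemokines of rodents that lie next to each other on chromosome 11, were the genes of the Acp5 macrophage-like cluster. Ccl6 was at 2422 CPM (2388 to 2456) and in 91.9% of its 233 cells, and Ccl9 was at 1072 (1050 to 1095) and in 91.0%. Thinned to 1000 UMIs the shares were 59.7% and 48.1%. For Ccl6 the next classes in CFA were neutrophil-like (1349, 1295 to 1403), basophil-like (991.7, 836.3 to 1168), monocyte-like (828.2, 762.0 to 898.6) and macrophage-like cells (554.4, 532.4 to 577.2), with basophil-like and monocyte-like intervals overlapping. For Ccl9 they were basophil-like (413.2, 315.3 to 531.9), macrophage-like (352.1, 334.6 to 370.3), neutrophil-like (320.6, 295.0 to 347.9) and monocyte-like cells (320.1, 279.5 to 365.0), all overlapping their neighbours. Within the neutrophil-like class of CFA, Ccl9 was at 478.1 in the smaller cluster and 66.8 in the larger. The Acp5 cluster had no PBS cells, so its level in PBS is not known.

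In monocyte-like cells, macrophage-like cells and the larger neutrophil-like cluster these 2 genes differed less than over all cells. Some other groups differed by more than these. Fibroblast-like cells had 1 Ccl6 UMI in PBS (471 cells) and 71 in CFA (366 cells). Endothelial-like cells, which should lack Ccl6, had 3 in PBS (754 cells) and 102 in CFA (1044 cells). The neutrophil-like class as a whole had 7 Ccl9 UMIs in 19 PBS cells and 577 in 226 CFA cells. Of those 577, 531 were in the smaller neutrophil-like cluster, with 44 CFA cells and 1 PBS cell. At least 3 macrophage markers were in 35 of its CFA cells. Ccl6 in monocyte-like cells was at 778.8 (647.7 to 928.5) in 18 PBS cells and 828.2 (762.0 to 898.6) in 59 CFA cells, with overlapping intervals, and Ccl9 was at 263.8 (190.1 to 356.6) and 320.1 (279.5 to 365.0). In macrophage-like cells Ccl6 was at 1121 in PBS, 426.7 without 1 cell, and 554.4 in CFA, and Ccl9 was at 380.9 and 352.1. The larger neutrophil-like cluster held Ccl6 at 619.4 (505.6 to 751.2) in PBS and 1093 (1016 to 1174) in CFA, but Ccl9 at only 42.1 (16.9 to 86.7) and 66.8 (48.9 to 89.1). Neutrophil-like cells of this cluster thus carried Ccl6 with little Ccl9.

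Over the 25 sums of a class in a library with at least 50 cells, Ccl6 and Ccl9 had the highest correlation of any pair of the 9 genes (Pearson r 0.98 on log2 of CPM plus 10), as a description of points that share libraries and depth. Their promoters were compared for that reason. The 250 bases before each gene's start, on the minus strand of chromosome 11 in GRCm38.p6 from RefSeq, are printed with the longest stretch shared by both in capitals. It starts 55 bases before the gene start in Ccl6 and 14 bases before it in Ccl9, and is held by 5 of 32851 promoters of the same length (0.0152%). The stretch was chosen because both promoters hold it, so both are among the 5. Whether it has a function was not tested.
Ccl6, chr11:83593088-83593337: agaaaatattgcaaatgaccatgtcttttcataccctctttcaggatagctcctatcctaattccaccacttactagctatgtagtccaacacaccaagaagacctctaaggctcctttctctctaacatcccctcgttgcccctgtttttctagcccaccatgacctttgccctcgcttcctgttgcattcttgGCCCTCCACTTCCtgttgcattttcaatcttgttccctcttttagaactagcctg
Ccl9, chr11:83578637-83578886: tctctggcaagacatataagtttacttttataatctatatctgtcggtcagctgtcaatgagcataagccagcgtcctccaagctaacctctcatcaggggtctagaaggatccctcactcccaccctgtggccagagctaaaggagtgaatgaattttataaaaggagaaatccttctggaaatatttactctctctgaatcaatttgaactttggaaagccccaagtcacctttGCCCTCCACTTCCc

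Short motifs were searched on both strands of the promoters at hand, those of Ccl3, Ccl6, Ccl8, Ccl9 and Ccr1. These were a kappaB-type motif (GGGA, then 4 bases of any kind, then CC, in 17.6% of all promoters), GAGGAAGT (2.44%), TTGCNNAA (9.56%) and TGANTCA (6.75%). The Ccl9 promoter held 1 TGANTCA, 53 bases before the start, and the Ccr1 promoter held 1 kappaB-type motif, 74 bases before it. None of these 4 motifs was in the Ccl3, Ccl6 or Ccl8 window, which says only that these letters are absent there.

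Ccr1 encodes a receptor for CCL3, CCL5, CCL6 and CCL9 on neutrophils, monocytes and macrophages. Its transcripts were mostly in myeloid classes, which also held transcripts of some or all of those ligands. The 8 PBS T or NK cell-like cells, which held most Ccl5 UMIs of that library, had 0 Ccr1 UMIs. In CFA Ccr1 was at 373.4 CPM (345.7 to 402.7) in neutrophil-like, 180.5 (171.4 to 190.0) in Acp5 macrophage-like, 162.2 (133.7 to 195.0) in monocyte-like, 143.6 (128.7 to 159.8) in immature neutrophil-like, 117.1 (68.2 to 187.4) in basophil-like and 108.5 (98.9 to 118.8) in macrophage-like cells. From the Acp5 cluster down, each interval overlapped the next. By share, 77.4% of neutrophil-like, 88.0% of Acp5 macrophage-like and 52.3% of macrophage-like cells held a Ccr1 UMI. With 1000 UMIs per cell these were 42.5%, 14.6% and 10.8%, so the order of the first 2 turned at equal depth and then followed the levels. In endothelial-like cells (median 4402 UMIs) Ccr1 was in 1.34% of CFA cells.

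The classes with cells in both libraries were higher for Ccr1 in CFA or overlapped. Neutrophil-like cells were at 120.7 (75.7 to 182.8) in 19 PBS cells, below the CFA interval, and without the cells with 3 macrophage markers the values were 182.0 and 577.4. Immature neutrophil-like cells were at 33.7 (21.1 to 51), also below the CFA interval. Monocyte-like cells were at 106.8 (62.2 to 170.9) and macrophage-like cells at 42.3 (15.5 to 92.1), the first overlapping its CFA interval and the second not. The macrophage-like class was not made of the same clusters in both libraries, since 10 of its 11 PBS cells were in the Mrc1 cluster. Within that cluster Ccr1 was at 37.3 (12.1 to 87.0) in PBS and 49.3 (37.4 to 63.7) in CFA, with overlapping intervals. Among the 3 macrophage clusters of CFA, Ccr1 was at 180.5 in the Acp5, 130.9 (118.5 to 144.3) in the larger and 49.3 (37.4 to 63.7) in the Mrc1 cluster, so the cluster with the most Ccl2, Ccl7 and Ccl8 held the least Ccr1 of the 3.

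Only classes with at least 50 cells in both libraries were compared between PBS and CFA as ratios. In fibroblast-like cells (471 in PBS and 366 in CFA, Dcn at 10942 and 9471 CPM), 8 of the 8 genes with at least 10 UMIs were higher in CFA, where 7.58% of 14472 genes were higher and 5.23% lower. The median ratio was 0.986 over all genes and 7.58 over those of the 8 with a PBS UMI, which leaves out Ccl5. Ccr1, with 1 and 7 UMIs, was below the limit for comparison.

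**Figure D4:**
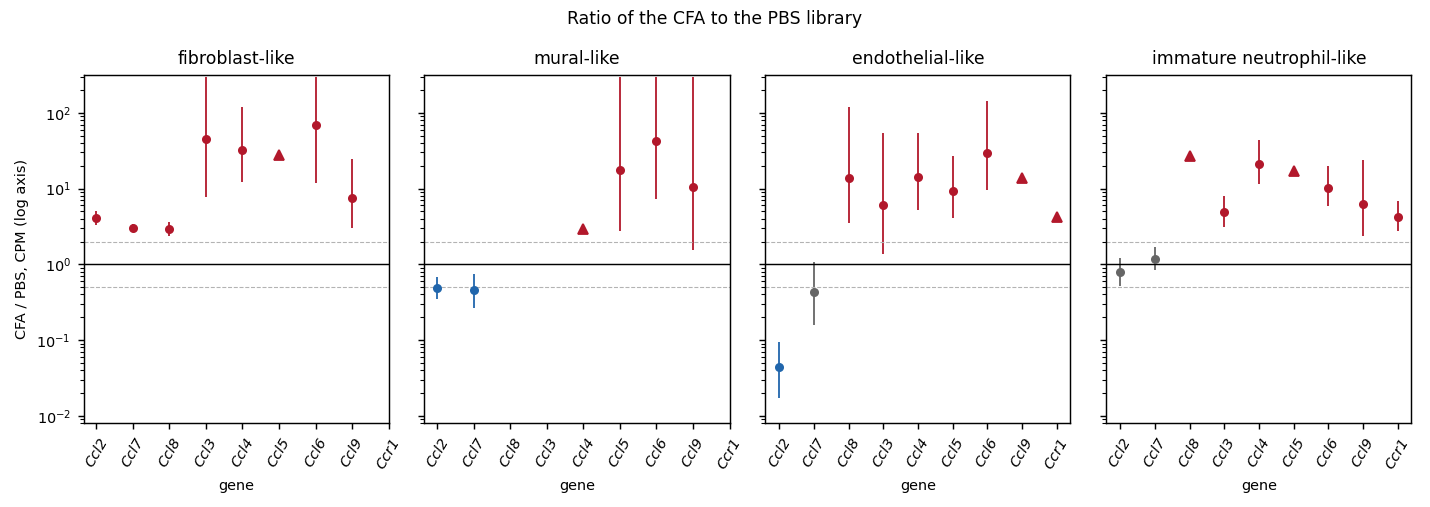
Ratio of CFA to PBS in CPM (log axis) for each gene in fibroblast-like, mural-like, endothelial-like and immature neutrophil-like cells. Points carry exact 95% counting intervals that are cut at 300, triangles are lower bounds for genes with 0 PBS UMIs, dashed lines mark 2-fold, and red, blue and gray stand for higher, lower and neither. Ccl2 is above 1 in fibroblast-like cells (4.05) and below 1 in mural-like (0.491) and endothelial-like cells (0.0440).

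In fibroblast-like cells the 3 monocyte chemoattractant genes had more UMIs in both libraries than the other ligands. Their counting intervals do not cover differences between cells or animals. Ccl2 was at 19.8 CPM in PBS and 80.2 in CFA (105 and 438 UMIs), 4.05-fold (3.27 to 5.07). Ccl7 was at 78.2 and 237.5 (415 and 1297 UMIs), 3.04-fold (2.72 to 3.40), and Ccl8 was at 21.3 and 62.6 (113 and 342 UMIs), 2.94-fold (2.37 to 3.67). None of the 3 rested on 1 cell or on cells with macrophage markers: without the 5 CFA cells that held at least 3 of those markers, the CFA levels were 76.4, 239.9 and 63.5. The shares of cells with a UMI went the same way, at 3.82% in PBS and 11.5% in CFA for Ccl2, 10.8% and 26.5% for Ccl7, and 9.55% and 24.6% for Ccl8 (median 11293 and 12922 UMIs). Thinned to 1000 UMIs they were 1.5% and 3.34%, 3.21% and 9.75%, and 1.71% and 3.9%.

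The other ligands of fibroblast-like cells were nearly absent in PBS and low in CFA. Ccl3 had 1 and 47 UMIs, a ratio of 45.7 (7.81 to 1842), Ccl4 had 4 and 132, 32.1 (12.2 to 119.5), Ccl6 had 1 and 71, 69.0 (12 to 2764), and Ccl9 had 5 and 39, 7.58 (2.99 to 24.6). Ccl5 had 0 and 86 UMIs, at least 27.9-fold higher in CFA when PBS is set at 3 counts. Endothelial-like cells (754 and 1044), which should lack Ccl4, Ccl6 and Ccl9, had 4 and 66, 3 and 102, and 0 and 48 UMIs of them. How much of the fibroblast-like counts was such background was not tested. A single CFA cell with 3 macrophage markers held 30 of the 47 Ccl3 and 66 of the 132 Ccl4 UMIs, and without the 5 marker cells the CFA levels of Ccl3 and Ccl4 were 3.03 and 6.81 in place of 8.61 and 24.2. Transcripts of 10 leukocyte genes, such as Lyz2 and S100a8, summed to 441.8 CPM in PBS and 718.7 in CFA in this class. The sum hides opposite moves, since S100a8 and S100a9 were at 212.5 and 205.0 in PBS and 50.9 and 60.6 in CFA, while Lyz2 was at 9.04 and 197.9 and Cd74 at 0.942 and 292.1. Their part in the result was not tested.

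The fibroblast-like class was made of 3 clusters, and their shares of it differed between the 2 libraries. The Pi16 cluster (130 PBS and 161 CFA cells), named for a gene of adventitial fibroblasts, was the largest in CFA, and the Apod cluster (216 and 148) was the largest in PBS. In the Pi16 cluster, Ccl2 was at 14.4 and 77.3 CPM, 5.39-fold (3.57 to 8.49), Ccl7 was at 87.2 and 311.8, 3.58-fold (3.01 to 4.27), and Ccl8 was at 43.0 and 98.6, 2.29-fold (1.77 to 2.99), where 7.22% of genes were higher. Each was past the 2-fold limit.

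In the Apod cluster (9.45% of genes higher) Ccl2 was at 41.9 and 87.1, 2.08-fold (1.55 to 2.79), while Ccl7 at 90.1 and 174.1, 1.93-fold (1.58 to 2.37), and Ccl8 at 17.8 and 21.4, 1.20-fold (0.706 to 2.03), were not past it. In the Angptl1 cluster (125 and 57 cells, 4.46% of genes higher) Ccl2 had 0 UMIs in PBS and 76 in CFA (80.0 CPM) in 4 cells, and Ccl7 was at 54.9 and 81.1, 1.48-fold (1.08 to 2.02). Single cells weighed on these Ccl2 values, with 54 of the 118 CFA UMIs of the Apod cluster and 47 of the 76 of the Angptl1 cluster in 1 cell each. Without the top cell of each library the Apod ratio of Ccl2 was 1.64 (1.12 to 2.39), no longer past the limit, and the share of Apod cells with Ccl2 was 6.48% in PBS and 5.41% in CFA (2.36% and 1.42% when thinned). In the Pi16 cluster the ratios without the top cells were 12.2 for Ccl2, 4.75 for Ccl7 and 2.49 for Ccl8. The Ccl2 and Ccl7 ratios then lay above their counting intervals with all cells, which do not cover the spread between cells. Of CFA cells in the Pi16 cluster, 43.5% held Ccl8 (median 18155 UMIs). Whether the ratios differ between clusters was not tested.

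**Figure D5:**
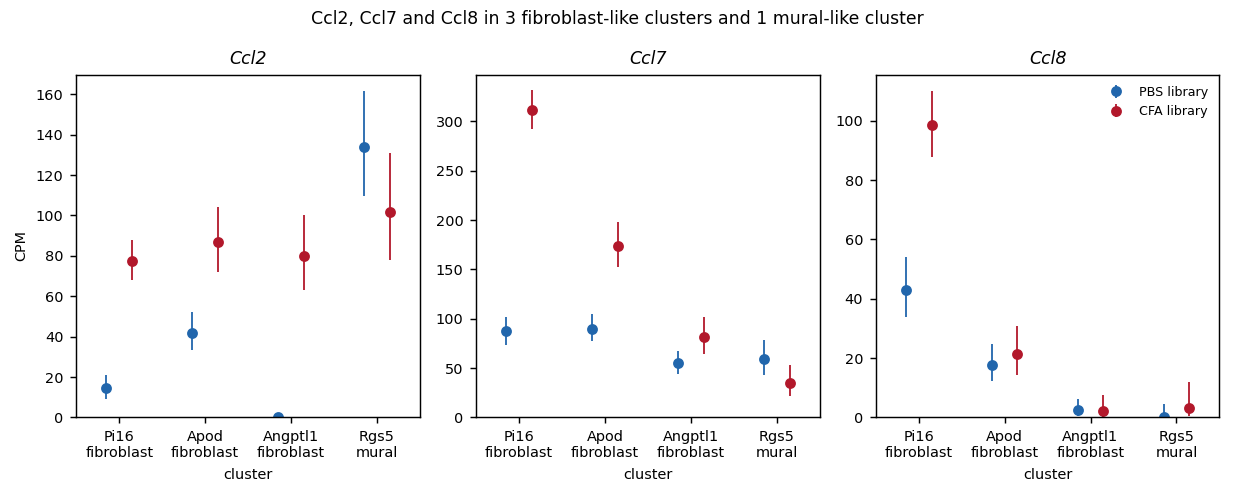
CPM of Ccl2, Ccl7 and Ccl8 in 3 fibroblast-like clusters and the Rgs5 mural-like cluster, PBS in blue and CFA in red, with exact 95% Poisson intervals. In the Pi16 cluster Ccl7 stands at 87.2 in PBS and 311.8 in CFA, and in the Rgs5 mural-like cluster the PBS and CFA intervals of Ccl2 overlap.

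The 3 genes shared fibroblast-like cells. In CFA Ccl7 was in 73.8% of the 42 cells with Ccl2 and in 20.4% of the others, and Ccl8 was in 52.6% of the 97 cells with Ccl7 and in 14.5% of the others. In PBS the shares were 38.9% and 9.71% for Ccl7, and 25.5% and 7.62% for Ccl8. The Mrc1 macrophage-like cluster of CFA had the same arrangement, with Ccl7 in 71.7% of cells with Ccl2 and 25.5% of the others, and Ccl8 in 61.8% of cells with Ccl7 and 26.9% of the others. Deeper cells hold more of every gene. With each fibroblast-like cell of CFA thinned to 1000 UMIs, Ccl7 was in 3 of the 12 cells with Ccl2 (25% against 9.22% of the others).

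Mural-like cells, the pericytes and smooth muscle cells of vessel walls, went the other way for Ccl2 and Ccl7. Of 6 genes compared, 4 were higher (3.4% of all genes) and 2 were lower (4.65%). Ccl2 was at 56.1 CPM (110 UMIs) in PBS and 27.5 (62 UMIs) in CFA, a ratio of 0.491 (0.354 to 0.677), and Ccl7 was at 24.5 and 11.1, 0.454 (0.268 to 0.751). Nearly all of both came from 1 cluster marked by the pericyte gene Rgs5 (82 and 70 cells), in which Ccl2 was at 133.8 and 101.9, 0.761 (0.547 to 1.05), and Ccl7 at 58.8 and 35.1, 0.597 (0.339 to 1.02), neither past 2-fold. That cluster made up less of the class in CFA, and 35 of the 62 CFA Ccl2 UMIs were in 1 cell. The 4 higher genes were Ccl4, Ccl5, Ccl6 and Ccl9, at 4.44 to 21.8 CPM in CFA, while the 10 leukocyte genes summed to 90.7 in PBS and 1714 in CFA in the same cells. Of these, S100a8 was at 31.6 and 603.9, S100a9 at 40.3 and 674.1 and Lyz2 at 5.10 and 256.2. In CFA, S100a8 and S100a9 together were at 162.0 in the Rgs5 cluster and 1682 in the other mural-like cluster. The part of the 10 genes in the result was not tested.

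In endothelial-like cells (754 and 1044), 7 of 9 genes were higher (5.03% of all genes) and 1 was lower (5.94%). Ccl2 was at 23.2 in PBS and 1.02 in CFA, 0.0440 (0.0174 to 0.0932), but 115 of the 136 PBS UMIs were in 1 cell and the PBS level was 3.61 without it. The 7 higher genes, Ccl3, Ccl4, Ccl5, Ccl6, Ccl8, Ccl9 and Ccr1, were at 2.04 to 14.9 CPM in CFA, and 96 of the 99 cells with Ccl6 held 1 UMI of it. Ccl9 was in 5.05% of endothelial-like cells with Ccl6 and in 4.23% of those without. The 10 leukocyte genes summed to 156.1 CPM in PBS and 1214 in CFA. Of these, Cd74 was at 42.6 and 679.3 and Lyz2 at 4.94 and 237.2, so Cd74 was the largest part of the CFA sum. The part of the 10 genes in the result was not tested.

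The other classes with enough cells gave mixed calls. Schwann-like cells had 4 genes higher and 1 lower of 7 compared (8.08% and 2.9% of all genes), tenocyte-like cells 1 and 3 of 4 (3.85% and 5.41%), and satellite cell-like cells 3 and 1 of 5 (6.46% and 5.68%). B cell-like cells had 3 of 3 higher (2.91%), chondrocyte-like cells 2 of 2 (4.4%) and erythroid-like cells 5 of 5 (18%). Single cells stood behind several of these calls: all 13 PBS Ccl7 UMIs of Schwann-like cells, 90 of 91 Ccl4 and 42 of 47 Ccl7 UMIs of PBS tenocyte-like cells, and 63 of 64 Ccl4 UMIs of CFA satellite cell-like cells were each in 1 cell. Erythroid-like cells of CFA held Ccl6 at 207.5 CPM, in 34.2% of 73 cells, Ccl9 at 182.1 and Ccl5 at 88.1. Of these cells 13 held at least 3 macrophage markers and 20.5% had doublet scores in the top 5%, and their median depth was 18038 UMIs in PBS and 1987 in CFA. Their part in the result was not tested.

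Immature neutrophil-like cells, marked by the granule genes Camp, Ngp and Ltf, were the only myeloid class with 50 cells in both libraries. Of the 9 genes, 7 were higher (5.19% of 10321 genes) and none was lower (11.7%). Ccl4 was at 15.3 in PBS and 321.9 in CFA, 21.0-fold (11.4 to 44.0), Ccl6 at 18.4 and 189.4, 10.3-fold (5.84 to 20.1), Ccl9 at 6.13 and 38.9, 6.35-fold (2.40 to 23.8), Ccl3 at 32.2 and 156.9, 4.88-fold (3.14 to 7.97), and Ccr1 at 33.7 and 143.6, 4.26-fold (2.77 to 6.89). Ccl5 and Ccl8 had 0 PBS UMIs and were at least 17.2-fold and 27.0-fold higher. In PBS, 17 of the 21 Ccl3 UMIs were in 1 cell. The receptor and the ligands Ccl3, Ccl4 and Ccl6 held in the cells with fewer than 3 macrophage markers, where their CFA levels were 145.0, 123.9, 258.9 and 142.7. Ccl5, Ccl8 and Ccl9 did not keep theirs, at 8.22, 3.52 and 8.81 without the 19 CFA cells that held at least 3 macrophage markers, and Ccl2 and Ccl7, which differed by less than 2-fold, were then at 2.35 and 0.587.

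Many myeloid cells held several ligands at once. At least 4 of the 8 were found in 58.3% of 12 basophil-like, 54.5% of macrophage-like, 54.2% of monocyte-like, 40% of progenitor-like, 39.5% of Acp5 macrophage-like, 21.2% of neutrophil-like and 11.9% of immature neutrophil-like cells of CFA. In PBS the share was 90.9% of 11 macrophage-like and 71.4% of 7 basophil-like cells. In CFA it was 4.92% in fibroblast-like cells and 0.0958% in endothelial-like cells. The order of these shares was not the order of depth, since Acp5 macrophage-like cells had a median of 32766 UMIs and macrophage-like cells one of 12129.

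The other genes of the family were divided. Of 13 other CC ligands, 12 could be compared over all cells, 5 were higher in CFA and 2 lower, against 9.07% and 10.4% of all genes. Their median ratio was 1.01 over those with a PBS UMI, which leaves out Ccl1. Of 11 other CC receptors 8 were compared, with 3 higher and 2 lower and a median of 0.975. Of 3 atypical receptors, which bind chemokines without signalling in the usual way, none was higher and 2 were lower, with a median of 0.469. Ccrl2, itself atypical, was counted with the other CC receptors, so the counts of both groups depend on its place. The median of the 9 genes described above was 5.11 and that of all genes 0.864.

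Among the receptors, Ccr2, whose product reads CCL2 and CCL7, was at 11.3 CPM in PBS and 52.8 in CFA, 4.67-fold. Ccr2 was at 678.3 in PBS and 875.6 in CFA monocyte-like cells. Ccrl2, a receptor-like gene of activated myeloid cells, was at 10.6 and 136.3, 12.8-fold, with 120.7 and 710.1 in neutrophil-like cells. In CFA, Ccr1 and Ccr2 thus had their highest values in different myeloid classes.

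Of the ligands, Ccl12, a further mouse ligand of CCR2, was at 1.77 and 11.8, 6.67-fold, and Ccl1, a ligand of CCR8, had 0 PBS UMIs and was at 6.26 in CFA, at least 56.7-fold higher. Of the 278 CFA UMIs of Ccl1, 274 lay in 1 macrophage-like cell, so its value is that of a single cell. Ccl17 had 2 and 171 UMIs, 52.3-fold (14.3 to 435.7), and Ccl22 was at 0.147 and 1.22, 8.27-fold. The lymphoid chemokine gene Ccl21a was lower, at 58.8 and 17.5, a ratio of 0.298, as was Ccl27a at 11 and 3.53, and both have near-identical copies in the mouse genome that make their counts uncertain. In fibroblast-like cells, Ccl11, which attracts eosinophils, was at 83.3 and 89.5 and Ccl19, which attracts T cells and dendritic cells, at 106.4 and 107.3, so that neither was past the limit as Ccl2, Ccl7 and Ccl8 were. The atypical receptor gene Ackr1, which venular endothelium uses to bind and display chemokines, was at 33.0 and 107.0 in endothelial-like cells, 3.24-fold (2.76 to 3.81), and Ackr4 was at 43.0 and 14.1 in fibroblast-like cells, 0.328.

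The genes whose levels ran most like each member were taken over the same 25 sums, from 14314 genes with at least 100 UMIs, as descriptions without a test. Ccl3 ran with Tnf (r 0.98), Ccl4 with Nlrp3 (0.94), Ccl5 with Ly6i (0.96), Ccl6 with Wfdc17 (0.98), Ccl9 with Cd68 (0.98) and Ccr1 with Tlr13 (0.99). The likeness was weaker for Ccl8, nearest to Pdcd1lg2 (0.82) and C1qa (0.81), Ccl2, nearest to Zyx (0.79), and Ccl7, nearest to the complement gene C3 (0.75). Between members, r was 0.96 for Ccl3 and Ccl4, 0.70 for Ccl2 and Ccl7, 0.72 for Ccl7 and Ccl8, and 0.25 for Ccl7 and Ccl9.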

How the data were processed

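Cell Ranger 7.0.1 with GRCm38 (mm10) was used by the authors to make the deposited UMI counts per gene and barcode. The methods name a 3' v3.1 kit and the labels a 3' v2 kit, and this was not resolved. Clustering followed the methods (SCTransform, integration, 200 principal components, resolution 1.5) in Seurat 5.3.0, with 3000 integration genes, a number chosen here, without 36 CC ligand and receptor genes, and with a hemoglobin limit that the methods do not name. Clusters of mixed immune cells were clustered again (30 components, resolution 0.8), a step chosen after the first clustering was seen. In that step the cells of both libraries were log-normalized and merged without integration. The monocyte-, macrophage-, Acp5 macrophage-, progenitor-, T or NK cell- and plasmacytoid dendritic cell-like classes and the smaller neutrophil-like cluster came from it. A class needed 3 of its 8 markers in at least 25% of cells and 2-fold above other cells. Scrublet called 21 PBS and 2 CFA doublets, too few to use, so doublets were kept. UMIs were summed per class and library and divided by all UMIs of the class. Exact Poisson intervals were used for sums, Clopper-Pearson intervals for shares and exact conditional intervals for ratios (SciPy 1.17.1), at 95%. Genes with at least 10 UMIs in a class were compared. For equal depth, cells were thinned to 1000 UMIs. The ratio step was tested on simulated sums drawn with counting error only, so that test does not cover spread between cells. The members and lists were chosen with earlier results of these data known. The named genes are the 9 members, those of the other CC ligands and receptors that passed the fold in a class holding most member UMIs, the CC receptors with a level in monocyte-, macrophage- and neutrophil-like cells, and the 3 genes with the highest Pearson correlation with each member. Of these, 1 gene is not reported here. Other settings, 4 of them chosen after seeing the data, are given in the closing section.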

Additional observations from a re-analysis of the deposited data

Results flagged for a closer look

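Ratios of CFA to PBS for 1 gene lay on opposite sides of 1 in different classes, and the differences between classes were not tested. For Ccl2 the ratio was 4.05 in fibroblast-like and 14.1 in erythroid-like cells, and 0.0440 in endothelial-like, 0.0860 in tenocyte-like, 0.396 in satellite cell-like and 0.491 in mural-like cells. In endothelial-like cells 1 PBS cell held 115 of 136 UMIs, and the ratio without the top cell of each library was 0.0808. For Ccl4 it was 14.1 in endothelial-like, 17.7 in erythroid-like, 21.0 in immature neutrophil-like and 32.1 in fibroblast-like cells, and 0.0510 in tenocyte-like cells, where 1 PBS cell held 90 of 91 UMIs. For Ccl7 it was 3.04 in fibroblast-like cells, and 0.0329 in tenocyte-like, 0.0634 in Schwann-like and 0.454 in mural-like cells. A single PBS cell held 42 of the 47 tenocyte-like UMIs of Ccl7, and 1 held all 13 Schwann-like UMIs. In CFA, 1 mural-like cell held 35 of 62 UMIs of Ccl2 and 1 fibroblast-like cell 66 of 132 of Ccl4. In erythroid-like cells the median depth was 18038 UMIs in PBS and 1987 in CFA, and the sum of leukocyte genes was 294.5 and 4263 CPM. The fibroblast-like values of Ccl2 and Ccl7 in CFA rest on 42 and 97 cells with a UMI.

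Barcodes that the limits removed also held these transcripts. The 3178 PBS barcodes over 1% hemoglobin held Ccl4 at 59.2 CPM, Ccl3 at 21.7, Ccl5 at 14.6, Ccl7 at 7.67 and Ccl9 at 6.53, of which only Ccl5 was above its level in kept PBS cells (10.2). The 412 CFA barcodes over 10% mitochondrial UMIs held Ccl6 at 394.8, Ccl9 at 108.7, Ccl4 at 62.3 and Ccl5 at 57.0, each below its level in kept CFA cells.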

How the results depend on the processing

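With 1 library per condition, no replicate could be left out. No paired analysis was possible because each group has 1 library. Each member ratio was recomputed under 13 settings in 7 classes. Of 607 values, 591 kept their call (higher, lower or not past the 2-fold limit), including 117 of 117 over all cells, 104 of 104 in fibroblast-like cells, 115 of 116 in endothelial-like, 66 of 70 in immature neutrophil-like, 68 of 75 in mural-like and 77 of 81 in Schwann-like cells. The direction turned for Ccl2 in immature neutrophil-like cells, with a ratio of 4.81 without a hemoglobin limit and 2.35 without the top cell of each library (an alternative added after seeing the data). It turned for Ccl4 in Schwann-like cells, at 0.260 when the libraries were log-normalized and merged with no integration step and 0.233 with each cell classed on its own, and for Ccl7 there, at 1.11 as a mean over cells. Without the top cell, none of the 3 lower calls in tenocyte-like cells and the 1 in Schwann-like cells (Ccl7) was left, since fewer than 10 UMIs of these genes remained. In mural-like cells Ccl2 was between 0.503 and 0.559 and so above the limit of 0.5 in 5 settings. Ccl7 there was at 0.521 and 0.754, and Ccl2 in endothelial-like cells at 0.7 with each cell classed on its own. Taking fibroblast-like clusters one at a time without the top cell ended 1 of 5 higher calls, Ccl2 in the Apod cluster (1.64). The share of member UMIs in myeloid classes was 56.0% in PBS and 74.2% in CFA with each cell classed on its own, and 58.5% and 91.6% without a hemoglobin limit. The causes were not tested. Immature neutrophil-like cells could not be compared in 5 settings and tenocyte-like cells in 1, with under 50 cells in a library.

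At 2000 UMIs per cell, 7 of the 9 genes kept the class with the highest thinned share.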

Other observations

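Ccr2, the receptor of CCL2 and CCL7, was at 3.06 CPM in PBS and 60.3 in CFA immature neutrophil-like cells (19.7-fold, counting interval 5.35 to 164.0), with 2 UMIs behind the PBS value. Ccrl2, an atypical receptor that binds chemerin and was counted above with the other CC receptors, was at 10.7 and 122.2 in these cells (11.4-fold, 5.46 to 28.6). Over all cells Ccl20, the ligand of CCR6, had 1 UMI in PBS and 21 in CFA, a ratio of 12.9 with a counting interval of 2.07 to 531.7. Ccr3, the eotaxin receptor, had 17 and 7 UMIs (ratio 0.252, 0.0884 to 0.640). Ccr7, the receptor of CCL19 and CCL21, was lower in CFA (0.480, 0.334 to 0.686), as was Ackr2, a scavenger of CC chemokines (0.469, 0.371 to 0.590).

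The summed level of 10 dissociation-responsive genes (Fos, Jun, Egr1 and others) was 10213 CPM in PBS and 8918 in CFA fibroblast-like cells, 13049 and 13766 in mural-like cells, and 9954 and 6957 in endothelial-like cells. Its part in the ratios was not tested.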
